A study of Mus musculus with 8 samples.

Results

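The genes of the proteasome, the enzyme complex that degrades proteins tagged with ubiquitin, were followed in mouse skin treated with shikonin, a naphthoquinone pigment from the roots of Lithospermum erythrorhizon. Members were taken by name, as every probe measured on all 8 arrays whose annotated symbol starts with Psma, Psmb, Psmc, Psmd, Psme or Psmg, with the immunoproteasome genes Psmb8, Psmb9 and Psmb10 kept apart for comparison. This gave 38 probes of 36 genes, out of 13853 measured probes that name 9987 genes. Abdominal skin of female C57BL/6JNarl mice of 6 to 8 weeks received 100 μl of acetone, the vehicle, or 100 μl of acetone that held shikonin at 10 μg/μl, and RNA of the skin was taken 4 h or 24 h later. The 4 groups, acetone or shikonin at either time, had 2 one-colour arrays each, and every mouse received acetone. The labels do not say whether the 2 arrays of a group came from separate animals, so the p-values below measure the spread between arrays, which may be technical.

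The 20S core of the proteasome is a barrel of stacked rings. Its outer rings are built of the α subunits (the Psma genes), which gate the entrance, and its inner rings of the β subunits (the Psmb genes), of which Psmb5, Psmb6 and Psmb7 carry the cutting sites. The 19S regulatory particle caps the core. Its base holds the ATPases Psmc1 to Psmc6, which unfold substrates, with the large scaffold subunit Psmd1 and the ubiquitin receptor Psmd4, and its lid holds other Psmd subunits, among them Psmd14, the enzyme that removes ubiquitin chains. Psmd9 and Psmd10 (gankyrin) are chaperones that help to assemble the base, and the Psmg proteins are chaperones of the core. Psme1 and Psme2 form PA28αβ, Psme3 forms the nuclear PA28γ and Psme4 is PA200, all of which are alternative caps of the core. When cells lose proteasome activity, the transcription factor NFE2L1 is known to raise the transcription of proteasome genes as a set.

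The members held 5 α ring probes, 6 β ring probes, 6 probes of base ATPases, 2 of other base subunits, 8 of lid subunits, 2 of base chaperones, 3 of core chaperones and 5 of activators. The last member, Psmc3ip, shares only the start of the symbol: it encodes the meiotic recombination factor HOP2 and is no proteasome subunit. The array carries 47 probes of these symbols, of which 9 were blank on all 8 arrays, so that Psma1, Psma8, Psmc4, Psmd2 and Psmd5 have no value here. No member lay at the floor set for dim probes on any array and none was saturated on any array. For 34 of the 38 probes the mean over the arrays lay above the median of all measured probes. Psmc6 and Psme1 have 2 measured probes each, which are given apart.

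Replicate arrays correlated at 0.984 to 0.990 across all measured probes (Pearson r of log2 intensity), and the array medians lay between 1129 and 1130, so the table had been scaled between arrays before deposit. Marker lists of skin and blood cells differed between the groups. Neutrophil markers were higher for 15 of 16 genes at 4 h and for 16 of 16 at 24 h (median log2 differences of 2.92 and 4.59). Keratinocyte markers were lower for 9 of 15 genes at 4 h and for 12 of 15 at 24 h (medians of -0.61 and -2.53). Hair follicle markers were higher for 9 of 10 at 4 h and lower for 7 of 10 at 24 h (medians of 4.46 and -1.31). Against these calls, 1 keratinocyte gene was higher and 1 hair follicle gene lower at 4 h, and 1 hair follicle gene higher at 24 h. Skeletal muscle markers were lower for 11 of 11 genes at 4 h and 8 of 11 at 24 h. Fibroblast markers were lower for 7 of 10 genes and higher for 1 at 4 h, and 4 and 2 at 24 h. Adipocyte markers were lower for 1 of 7 and higher for 3 at 4 h, and 6 and 0 at 24 h. The shares of all probes are given below. No list had a gene at the floor on all 8 arrays. Their part in the proteasome values was not tested, and in bulk skin fewer cells of a type cannot be told apart from less RNA per cell.

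**Figure D1:**
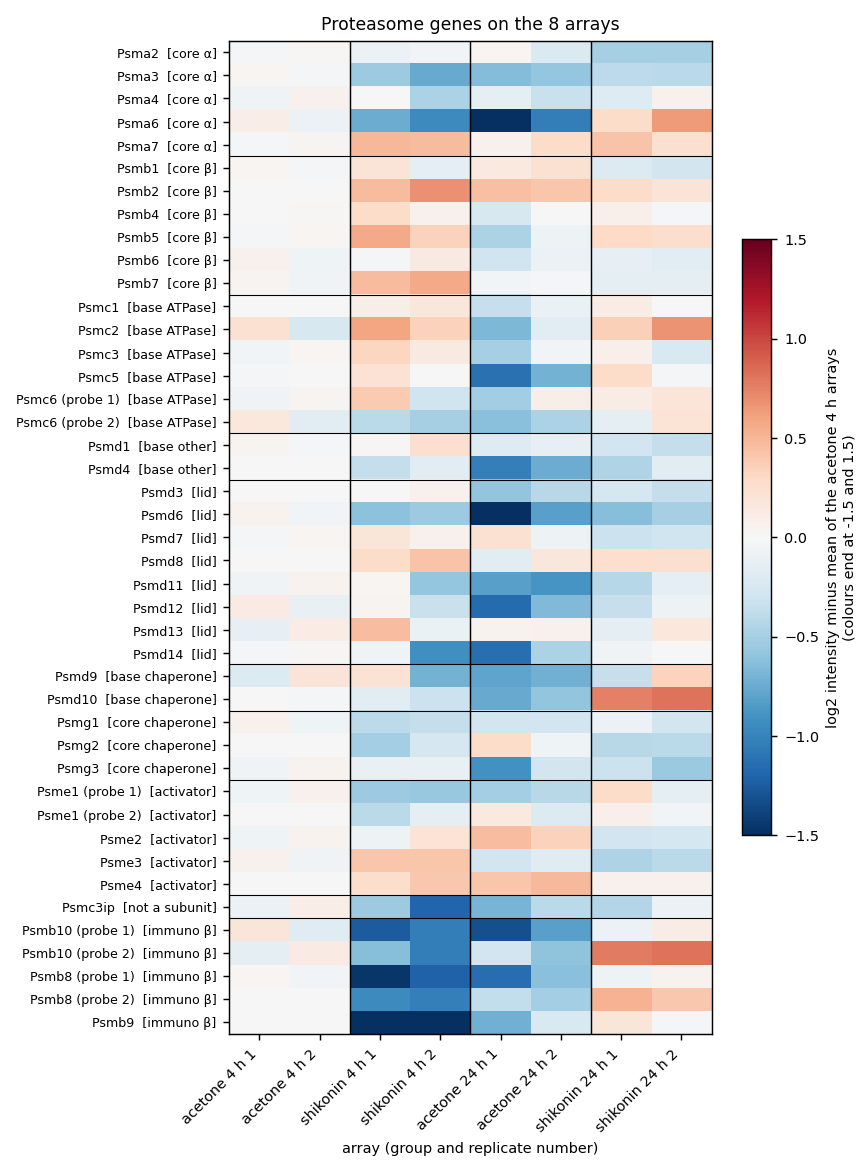
Log2 intensity of each proteasome probe (rows, by class) on each of the 8 arrays (columns), coloured as the difference from the mean of the 2 acetone 4 h arrays. The immunoproteasome probes at the foot are low on the shikonin 4 h arrays, and many base and lid rows are lowest on the acetone 24 h arrays, replicate 1 above all.

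At 4 h the proteasome genes did not move together. Relative to acetone-treated skin of the same time, 7 of the 38 probes were higher in shikonin-treated skin, 5 were lower and 26 did not pass (limma across all 13853 probes, Benjamini-Hochberg adjusted p under 0.05). Of all measured probes 21.2% were higher and 25.4% lower at 4 h, so the share of members that changed was no larger than that of the array. The median log2 difference of the members was 0.03 (all probes: -0.06), with a range from -0.87 for Psmc3ip to 0.58 for Psmb2. Leaving out an acetone 4 h array lowered the count most, to 3 higher and 3 lower without replicate 1 and to 3 higher and 2 lower without replicate 2.

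At 24 h 13 probes were higher in shikonin-treated skin (34.2%), 6 were lower (15.8%) and 19 did not pass. Among all measured probes 29.0% were higher and 32.3% lower. The share of members that was higher was thus near that of the array, and the share that was lower was smaller. The members' median log2 difference was 0.19 (all probes: -0.02), and the values ran from -0.68 for Psme2 to 1.72 for Psma6. Without acetone 24 h replicate 1 the counts were 6 higher and 4 lower with a median of 0.11, and without shikonin 24 h replicate 2 they were also 6 and 4. The median rose to 0.34 without acetone 24 h replicate 2. With the acetone 4 h arrays as the control in place of those of 24 h, 3 members were higher and 7 lower, against 27.8% higher and 30.0% lower of all measured probes, and the median was -0.07 (all probes: -0.02).

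**Figure D2:**
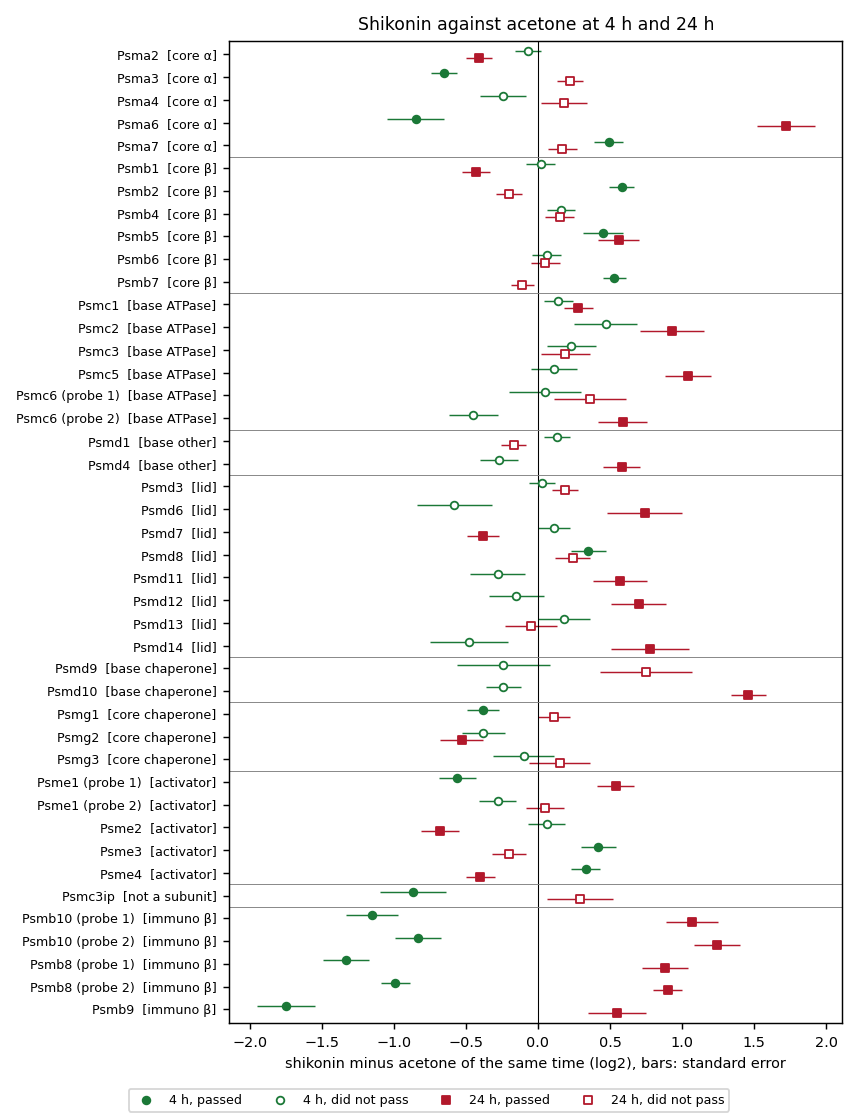
Difference of log2 intensity between shikonin and acetone of the same time for each proteasome probe, with its standard error, at 4 h (circles) and 24 h (squares); filled symbols passed the adjusted p of 0.05. The 6 β ring probes lie right of 0 at 4 h, most base and lid probes lie right of 0 at 24 h, and all 5 immunoproteasome probes lie left at 4 h and right at 24 h.

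The β ring was the class with the highest median at 4 h. All 6 of its probes were above 0 with a median log2 difference of 0.30 (all probes: -0.06). Psmb2, Psmb5 and Psmb7 passed the test and 3 did not, against 21.2% higher and 25.4% lower of all measured probes. Psmb2, a structural β subunit, measured 14.13 and 14.13 on the log2 scale in acetone 4 h, 14.60 and 14.82 in shikonin 4 h, 14.58 and 14.55 in acetone 24 h, and 14.41 and 14.32 in shikonin 24 h. It was 1.5-fold higher at 4 h (log2 difference 0.58 ± 0.09, SE; limma adjusted p = 0.000809), with no overlap between the groups, and lay at -0.20 ± 0.09 at 24 h (adjusted p = 0.0856). Its acetone level itself was higher at 24 h than at 4 h by 0.44 (adjusted p = 0.00856), so that the shikonin 4 h arrays stood 0.14 above the acetone 24 h arrays (adjusted p = 0.219).

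Psmb7 carries the trypsin-like site. Its values were 13.90 and 13.81 in acetone 4 h, 14.34 and 14.43 in shikonin 4 h, 13.82 and 13.84 in acetone 24 h, and 13.72 and 13.73 in shikonin 24 h. The 2 shikonin 4 h arrays were above the other 6. The difference was 0.53 ± 0.08 at 4 h, or 1.44-fold (adjusted p = 0.00076), it was 0.55 against the acetone 24 h arrays (adjusted p = 0.000429), and at 24 h it was -0.11 (adjusted p = 0.279). Psmb5, the chymotrypsin-like site and the target of the drug bortezomib, measured 12.19 and 12.24 in acetone 4 h, 12.78 and 12.55 in shikonin 4 h, 11.73 and 12.13 in acetone 24 h, and 12.51 and 12.47 in shikonin 24 h. It was the only member to pass as higher at both times, by 0.45 ± 0.14 at 4 h (1.37-fold, adjusted p = 0.0305) and by 0.56 ± 0.14 at 24 h (1.48-fold, adjusted p = 0.00777). Against the acetone arrays of the other time Psmb5 passed at 4 h (0.74, adjusted p = 0.00222) but not at 24 h (0.28, adjusted p = 0.128). The call of Psmb2 and that of Psmb7 at 4 h held in each of the 8 fits that left out 1 array. Psmb5 lost its 4 h call without either acetone 4 h array (adjusted p of 0.135 and 0.105), without shikonin 4 h replicate 1 (0.16) and without either shikonin 24 h array (0.0605 and 0.06), and its 24 h call without acetone 24 h replicate 1 (0.0517) or shikonin 24 h replicate 1 (0.054).

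The other β subunits did not pass at 4 h. Psmb1 measured 15.02 and 14.97 in acetone 4 h, 15.18 and 14.86 in shikonin 4 h, 15.14 and 15.22 in acetone 24 h, and 14.78 and 14.72 in shikonin 24 h. The groups overlapped at 4 h (0.02, adjusted p = 0.869) and did not at 24 h, where Psmb1 fell by 0.43 ± 0.10 (adjusted p = 0.00594), also with any array left out; against acetone 4 h it gave -0.24 (adjusted p = 0.0713). Psmb4 and the caspase-like subunit Psmb6 passed at neither time (0.16 and 0.06 at 4 h, 0.15 and 0.05 at 24 h). At 24 h the median of the ring was -0.03, with 1 probe higher and 1 lower.

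The α ring had calls in both directions at either time, although most of its 5 probes shared a sign. At 4 h 4 lay below 0 and 1 above (median log2 difference -0.24), with 1 call up and 2 down. At 24 h 4 lay above 0 and 1 below (median 0.18), with 1 call each way. Psma7 was higher at 4 h, with 14.03 and 14.10 in acetone and 14.56 and 14.53 in shikonin (0.49 ± 0.10, 1.40-fold, adjusted p = 0.00382), and measured 14.12 and 14.33 in acetone 24 h and 14.49 and 14.30 in shikonin 24 h (0.17, adjusted p = 0.179). Psma3 went the other way at 4 h, from 15.10 and 15.04 in acetone to 14.53 and 14.31 in shikonin (fell by 0.65 ± 0.09, adjusted p = 0.000391), and at 24 h it measured 14.42 and 14.49 in acetone and 14.68 and 14.66 in shikonin (0.22, adjusted p = 0.0633). Both 4 h calls held when any array was left out. Against the acetone 24 h arrays, however, the shikonin 4 h value of Psma3 differed by -0.03 (adjusted p = 0.789), and its acetone level was lower at 24 h than at 4 h (-0.62, adjusted p = 0.00193).

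Psma6 had the largest shikonin difference of the 38 probes at 24 h. Its log2 intensity was 10.81 and 10.62 in acetone 4 h, 9.97 and 9.76 in shikonin 4 h, 9.22 and 9.67 in acetone 24 h, and 10.98 and 11.35 in shikonin 24 h. The groups of each time did not overlap, in opposite order. The probe fell by 0.85 ± 0.20 at 4 h (adjusted p = 0.00672) and was 3.28-fold higher at 24 h (1.72 ± 0.20, adjusted p = 5.75e-05). The 4 h call was lost without acetone 4 h replicate 1 (-0.75, adjusted p = 0.0604) and without shikonin 4 h replicate 2 (-0.74, adjusted p = 0.06), while the 24 h difference stayed between 1.49 and 1.94. Shikonin 24 h exceeded acetone 4 h by 0.45 (adjusted p = 0.0791). Psma2 fell at 24 h, with 15.58 and 15.33 in acetone and 15.05 and 15.05 in shikonin (-0.41 ± 0.09, adjusted p = 0.00306), after 15.53 and 15.57 in acetone 4 h and 15.46 and 15.51 in shikonin 4 h. It was lower against the acetone 4 h arrays too (-0.50, adjusted p = 0.00108). Psma4 passed at neither time (-0.24 and 0.18).

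The regulatory particle, the largest class, had the most calls at 24 h. Of its 16 probes 9 were higher (56.2%) and 1 lower (6.25%), against 29.0% higher and 32.3% lower of all measured probes. Its median log2 difference was 0.46 (all probes: -0.02), and 13 of the 16 lay above 0. At 4 h only Psmd8 had passed (median 0.08). The count at 24 h moved with single arrays. It was 3 higher without acetone 24 h replicate 1 (median 0.19) and 2 higher without shikonin 24 h replicate 2 (median 0.38), but 9 higher without acetone 24 h replicate 2 and 6 without shikonin 24 h replicate 1.

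Among the base ATPases, Psmc1, Psmc2, Psmc5 and probe 2 of Psmc6 were higher at 24 h. Psmc5 measured 12.26 and 12.29 in acetone 4 h, 12.50 and 12.28 in shikonin 4 h, 11.16 and 11.57 in acetone 24 h, and 12.56 and 12.25 in shikonin 24 h. The 2 acetone 24 h arrays were thus low, and the other 6 lay close together. Psmc5 was 2.05-fold higher in shikonin 24 h than in acetone 24 h (1.04 ± 0.16, adjusted p = 0.00046), a call that held when any array was left out, and stood 0.12 above acetone 4 h (adjusted p = 0.533). Psmc2 had 11.39 and 10.92 in acetone 4 h, 11.75 and 11.51 in shikonin 4 h, 10.49 and 11.00 in acetone 24 h, and 11.52 and 11.83 in shikonin 24 h, which gave 0.47 ± 0.22 at 4 h (adjusted p = 0.105) and 0.93 ± 0.22 at 24 h (1.91-fold, adjusted p = 0.00459). Its 24 h call was lost without shikonin 24 h replicate 2 (0.78, adjusted p = 0.0567). Psmc3 measured 12.48 and 12.55 in acetone 4 h, 12.84 and 12.65 in shikonin 4 h, 12.02 and 12.48 in acetone 24 h, and 12.60 and 12.29 in shikonin 24 h, and passed at neither time.

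The probes of Psmc6 disagreed at 4 h. Probe 1 was dim, with 8.28 and 8.37 in acetone 4 h, 8.72 and 8.03 in shikonin 4 h, 7.81 and 8.42 in acetone 24 h, and 8.44 and 8.51 in shikonin 24 h (0.05 at 4 h and 0.36 ± 0.25 at 24 h, adjusted p = 0.248). Probe 2 had 11.35 and 11.02 in acetone 4 h, 10.79 and 10.69 in shikonin 4 h, 10.56 and 10.71 in acetone 24 h, and 11.05 and 11.40 in shikonin 24 h. It gave -0.45 ± 0.17 at 4 h (adjusted p = 0.0523) and was higher by 0.59 ± 0.17 at 24 h (adjusted p = 0.0124), a call lost without acetone 24 h replicate 1 (0.51) or shikonin 24 h replicate 2 (0.41). Psmc1 passed with the smallest difference of the 13 (0.28 ± 0.10, adjusted p = 0.0444) and did so in only 1 of the 8 fits with an array left out (0.15 to 0.40).

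The base subunits without ATPase activity split. Psmd4, which binds ubiquitin chains, measured 13.77 and 13.78 in acetone 4 h, 13.41 and 13.60 in shikonin 4 h, 12.74 and 13.02 in acetone 24 h, and 13.32 and 13.60 in shikonin 24 h. Its difference was -0.27 at 4 h (adjusted p = 0.124) and 0.58 ± 0.13 at 24 h (1.5-fold, adjusted p = 0.00407), and the 24 h call held when any array was left out. Against the acetone 4 h arrays, however, shikonin 24 h lay lower by 0.32 without passing (adjusted p = 0.0675). Psmd1, with 15.29 and 15.22 in acetone 4 h, 15.27 and 15.50 in shikonin 4 h, 15.06 and 15.13 in acetone 24 h and 14.96 and 14.89 in shikonin 24 h, passed at neither time (0.13 and -0.17).

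In the lid, Psmd6, Psmd11, Psmd12 and Psmd14 were higher at 24 h and Psmd7 was lower. Psmd14, the deubiquitinase, measured 12.85 and 12.89 in acetone 4 h, 12.82 and 11.95 in shikonin 4 h, 11.74 and 12.39 in acetone 24 h, and 12.82 and 12.87 in shikonin 24 h (1.72-fold at 24 h, 0.78 ± 0.27, adjusted p = 0.0319). Psmd12 had 12.65 and 12.42 in acetone 4 h, 12.57 and 12.20 in shikonin 4 h, 11.38 and 11.87 in acetone 24 h, and 12.19 and 12.45 in shikonin 24 h (0.70 ± 0.19, 1.63-fold, adjusted p = 0.0106). Psmd6 had 12.31 and 12.22 in acetone 4 h, 11.65 and 11.72 in shikonin 4 h, 10.46 and 11.45 in acetone 24 h, and 11.62 and 11.76 in shikonin 24 h (0.74 ± 0.26, adjusted p = 0.0336). In all of these the acetone 24 h arrays were the lowest group and replicate 1 was the lower array. The 2 acetone 24 h arrays of Psmd6 differed by 1.0, the widest gap of any member in that group. Psmd6 kept its 24 h call in only 1 of the 8 fits with an array left out (0.24 without acetone 24 h replicate 1), Psmd14 in 3 (0.46 without acetone 24 h replicate 1), and Psmd12 lost it without acetone 24 h replicate 1 (0.46) or shikonin 24 h replicate 2 (0.57).

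Psmd11 was higher by 0.57 ± 0.19 at 24 h (adjusted p = 0.0268) and lost the call without acetone 24 h replicate 1 (0.60, adjusted p = 0.0725), acetone 24 h replicate 2 (0.53, adjusted p = 0.103) or shikonin 24 h replicate 2 (0.41, adjusted p = 0.192). Psmd7 went down at 24 h, with 14.26 and 14.31 in acetone 4 h, 14.46 and 14.34 in shikonin 4 h, 14.51 and 14.20 in acetone 24 h, and 13.96 and 13.98 in shikonin 24 h. It fell by 0.38 ± 0.11 (adjusted p = 0.0126) and was also lower against acetone 4 h (-0.32, adjusted p = 0.0329), but the call was lost without acetone 24 h replicate 1 (-0.23) or either shikonin 24 h array (-0.38 and -0.39). Psmd8, the only regulatory probe called at 4 h, measured 12.52 and 12.52 in acetone 4 h, 12.80 and 12.95 in shikonin 4 h, 12.36 and 12.69 in acetone 24 h, and 12.77 and 12.76 in shikonin 24 h. Its 4 h difference of 0.35 ± 0.12 (adjusted p = 0.0441) stayed past the threshold only where an acetone 24 h array was the one left out (range over the 8 fits 0.28 to 0.43). Psmd3 and Psmd13 passed at neither time (0.03 and 0.18 at 4 h, 0.19 and -0.05 at 24 h).

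The acetone arrays themselves differed between the times. Compared with acetone 4 h, the acetone 24 h arrays had 11 members lower and 2 higher, against 14.2% lower and 15.5% higher of all measured probes, and the members' median was -0.25 (all probes: 0.06). Of the 16 regulatory probes 7 were lower and 0 higher by limma (median -0.46; 8 and 0 at an unadjusted p under 0.05), but 3 were lower without acetone 4 h replicate 1 (median -0.34) and 4 without acetone 24 h replicate 1 (median -0.29). Fewer members passed without acetone 24 h replicate 1 (1 higher and 7 lower), acetone 4 h replicate 1 (0 and 6) or acetone 4 h replicate 2 (0 and 8). The lowest were Psmd6 (-1.31 ± 0.26, adjusted p = 0.00697), Psmd12 (-0.91, adjusted p = 0.00875) and Psmc5 (-0.91, adjusted p = 0.00456), beside Psma6 of the core (-1.27, adjusted p = 0.00241). Replicate 1 of acetone 24 h was below replicate 2 for 29 of the 38 members, by a median of 0.16, while the median gap over all probes was 0.00. In the same comparison neutrophil markers were lower for 11 of 16 genes (median -1.32). Macrophage and monocyte markers were lower for 9 of 14 and higher for 1 (median -0.64). The part of such cells in the proteasome values was not tested.

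Both contrasts at 24 h share their shikonin arrays, and set side by side they differ for the regulatory particle. Against acetone 24 h its median was 0.46 with 9 of 16 higher; against acetone 4 h the median was -0.05 with 0 higher and 3 lower of the 16 by limma (1 and 4 at an unadjusted p under 0.05), where 27.8% of all probes were higher and 30.0% lower. Of the 13 members that were higher against acetone 24 h, Psmd10 alone was also higher against acetone 4 h, and the other 12 were not called. Of the 6 members that were lower, Psma2, Psmd7 and Psmg2 were lower against both acetone groups. At 4 h, Psma7, Psmb5, Psmb7, Psmd8 and Psme3 were higher against both acetone groups, while Psmb2 and Psme4 and all 5 members that were lower were called only against acetone 4 h. With the acetone 24 h arrays as control for shikonin 4 h, 17 members were higher and 1 lower (median 0.31), against 24.3% higher and 30.2% lower of all probes (median -0.08).

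**Figure D3:**
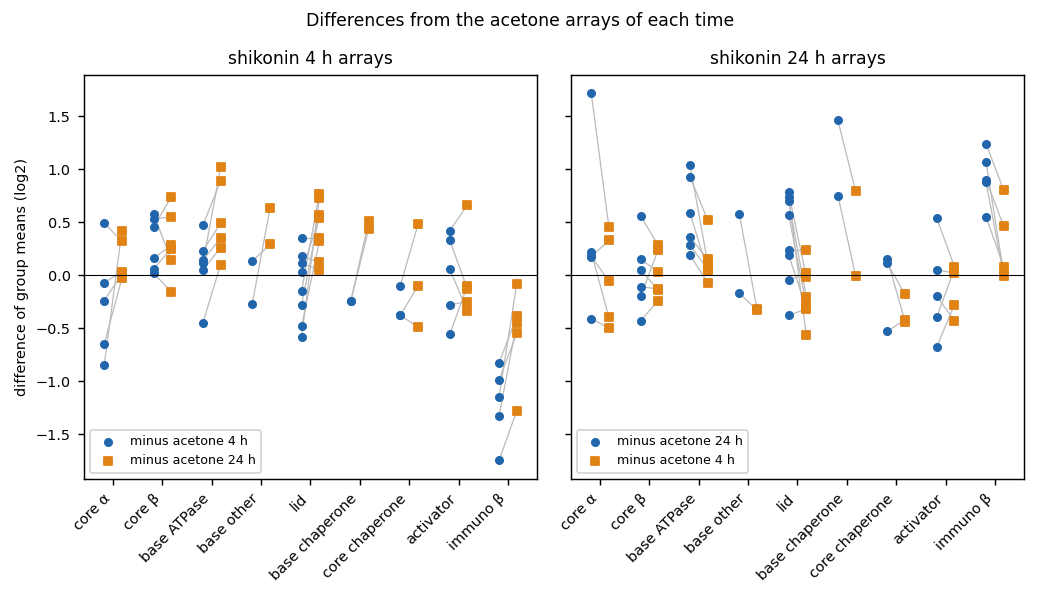
Difference of group means (log2) of each proteasome probe between the shikonin 4 h arrays (left) or the shikonin 24 h arrays (right) and the acetone arrays of the same time (blue circles) or of the other time (orange squares), by class. For shikonin 24 h the base ATPase and lid probes move from mostly above 0 to a spread between -0.57 for Psmd6 and 0.52 for Psmc2 when the acetone 4 h arrays are the control, whereas Psmd10, the upper base chaperone, moves from 1.46 to 0.79.

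Between the times within shikonin-treated skin, 5 members were higher at 24 h than at 4 h and 7 were lower, against 24.2% higher and 23.4% lower of all measured probes, with a median of -0.07 (all probes: 0.03). The lowest were Psme3 (-0.85, adjusted p = 0.000338), Psmb7 (-0.66, adjusted p = 0.000187) and Psmd1 (-0.46, adjusted p = 0.00246). The highest were Psma6 (1.30, adjusted p = 0.000619), Psmd10 (1.03, adjusted p = 0.000134) and probe 1 of Psme1 (0.63, adjusted p = 0.00392). The regulatory particle had 1 probe higher and 3 lower (median -0.05). Without shikonin 24 h replicate 2 the counts over all members were 3 higher and 4 lower.

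Psmd10 encodes gankyrin, a chaperone of the base that is known in human and rodent liver tumours as an oncoprotein that binds RB1 and MDM2. Its log2 intensity was 11.44 and 11.41 in acetone 4 h, 11.27 and 11.11 in shikonin 4 h, 10.67 and 10.84 in acetone 24 h, and 12.19 and 12.24 in shikonin 24 h. Both shikonin 24 h arrays were above all others. It was 2.76-fold higher than acetone at 24 h (1.46 ± 0.12, adjusted p = 5.99e-06) and 0.79 higher than acetone 4 h (adjusted p = 0.000447), and lay at -0.24 ± 0.12 at 4 h (adjusted p = 0.138). With any array left out the 24 h difference stayed between 1.38 and 1.55. The other base chaperone, Psmd9, had 9.22 and 9.61 in acetone 4 h, 9.64 and 8.71 in shikonin 4 h, 8.63 and 8.70 in acetone 24 h, and 9.07 and 9.75 in shikonin 24 h. Its replicates lay up to 0.92 apart, and it did not pass at 24 h (0.75 ± 0.32, adjusted p = 0.0652).

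The 3 core chaperone probes lay below 0 at 4 h (median -0.38), and only Psmg1 passed as lower, against 25.4% of all measured probes. Its difference was -0.38 ± 0.11 (adjusted p = 0.0194). The call was lost without either acetone 4 h array (-0.31 and -0.44) or shikonin 4 h replicate 1 (-0.36). Against acetone 24 h the shikonin 4 h differences were -0.10 for Psmg1, -0.49 for Psmg2 and 0.48 for Psmg3, and only Psmg2 passed (adjusted p = 0.0179). Psmg2, the partner of Psmg1, measured 11.70 and 11.72 in acetone 4 h, 11.20 and 11.46 in shikonin 4 h, 11.99 and 11.65 in acetone 24 h, and 11.29 and 11.30 in shikonin 24 h. It gave -0.38 ± 0.15 at 4 h (adjusted p = 0.0569) and fell by 0.53 ± 0.15 at 24 h (adjusted p = 0.0114), where the call was lost without acetone 24 h replicate 1 (-0.36) or either shikonin 24 h array (-0.52 and -0.53). Psmg3, with 9.27 and 9.37 in acetone 4 h, 9.21 and 9.21 in shikonin 4 h, 8.41 and 9.05 in acetone 24 h, and 9.0 and 8.76 in shikonin 24 h, passed at neither time.

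The activators went separate ways. Psme4 (PA200) measured 12.23 and 12.23 in acetone 4 h, 12.49 and 12.63 in shikonin 4 h, 12.65 and 12.72 in acetone 24 h, and 12.29 and 12.29 in shikonin 24 h. It was the only member that was higher at 4 h (0.33 ± 0.10, 1.26-fold, adjusted p = 0.0234) and lower at 24 h (-0.40 ± 0.10, adjusted p = 0.00689). The 4 h call was lost without either acetone 4 h array (0.33 each) or shikonin 4 h replicate 2 (0.26), and neither difference passed against the acetone arrays of the other time (-0.13 and 0.06). Psme3 (PA28γ) had 11.28 and 11.17 in acetone 4 h, 11.64 and 11.64 in shikonin 4 h, 10.93 and 11.04 in acetone 24 h, and 10.76 and 10.82 in shikonin 24 h. It was higher at 4 h (0.42 ± 0.12, 1.34-fold, adjusted p = 0.0165), a call lost without either acetone 4 h array (0.48 and 0.36), and gave -0.20 at 24 h (adjusted p = 0.172).

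The subunits of PA28αβ, which are interferon-inducible, were not called in the same direction. Psme2 measured 11.08 and 11.19 in acetone 4 h, 11.06 and 11.34 in shikonin 4 h, 11.60 and 11.48 in acetone 24 h, and 10.85 and 10.88 in shikonin 24 h. It fell at 24 h by 0.68 ± 0.13 (adjusted p = 0.00191), with no overlap, and the call held when any array was left out. Against acetone 4 h, however, the shikonin 24 h value of Psme2 differed by -0.28 and did not pass (adjusted p = 0.108). Probe 1 of Psme1 had 13.26 and 13.39 in acetone 4 h, 12.78 and 12.76 in shikonin 4 h, 12.82 and 12.91 in acetone 24 h, and 13.60 and 13.20 in shikonin 24 h, and was lower at 4 h (-0.56 ± 0.13, adjusted p = 0.00762) and higher at 24 h (0.54 ± 0.13, adjusted p = 0.0065). The calls were lost without acetone 4 h replicate 2 (-0.49) and without shikonin 24 h replicate 1 (0.33). Against the acetone arrays of the other time probe 1 passed neither at 4 h (-0.10, adjusted p = 0.567) nor at 24 h (0.08, adjusted p = 0.647). Probe 2 of Psme1, with 13.75 and 13.76 in acetone 4 h, 13.34 and 13.60 in shikonin 4 h, 13.90 and 13.55 in acetone 24 h, and 13.83 and 13.71 in shikonin 24 h, passed at neither time (-0.28 and 0.05). Psmc3ip, which is no subunit, had 9.10 and 9.29 in acetone 4 h, 8.65 and 8.00 in shikonin 4 h, 8.49 and 8.79 in acetone 24 h, and 8.75 and 9.10 in shikonin 24 h (-0.87 ± 0.23 at 4 h, adjusted p = 0.0137), and lost that call without acetone 4 h replicate 2 (-0.77) or shikonin 4 h replicate 2 (-0.54).

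**Figure D4:**
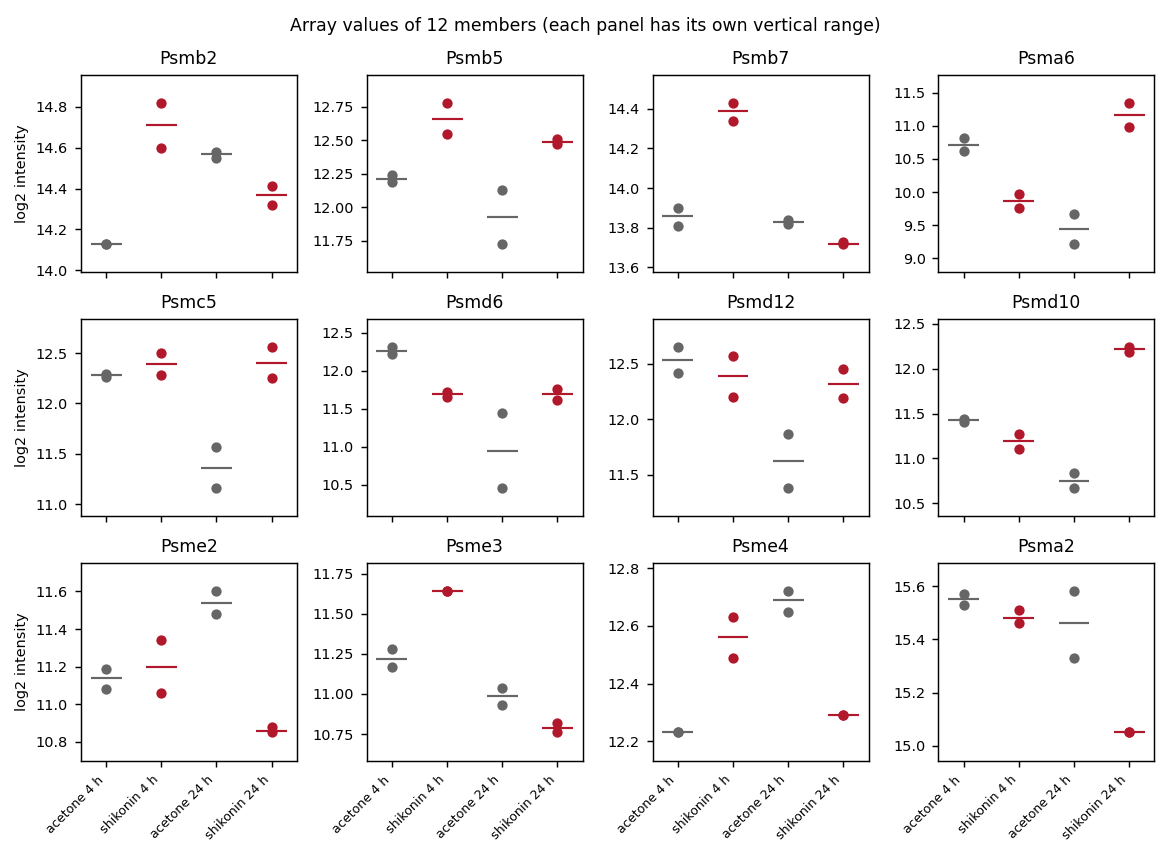
Log2 intensity of 12 proteasome genes on each array (points) with the group mean (bars), grey for acetone and red for shikonin, each panel with its own range. Psmb7 stands high on the shikonin 4 h arrays alone, Psmd10 on the shikonin 24 h arrays, and Psmc5, Psmd6 and Psmd12 are lowest on the acetone 24 h arrays.

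The immunoproteasome subunits Psmb8, Psmb9 and Psmb10 replace the catalytic β subunits in immune cells and after interferon. Their 5 probes, of 3 genes, were all lower at 4 h (median -1.15) and all higher at 24 h (median 0.90). Of all measured probes 25.4% were lower at 4 h and 29.0% higher at 24 h. The constitutive β ring was unlike them, with medians of 0.30 and -0.03. Psmb9 measured 12.69 and 12.70 in acetone 4 h, 11.21 and 10.68 in shikonin 4 h, 11.98 and 12.47 in acetone 24 h, and 12.88 and 12.68 in shikonin 24 h (-1.75 ± 0.20 at 4 h, adjusted p = 0.000126; 0.55 ± 0.20 at 24 h, adjusted p = 0.0382). Its 4 h difference was the largest of the 5 probes, while the 24 h call was lost in 5 of the 8 fits with an array left out (0.31 without acetone 24 h replicate 1). Probe 1 of Psmb8 had 13.83 and 13.76 in acetone 4 h, 12.34 and 12.59 in shikonin 4 h, 12.66 and 13.17 in acetone 24 h, and 13.72 and 13.85 in shikonin 24 h (-1.33 ± 0.16 and 0.88 ± 0.16). Probe 2 of Psmb8 had 12.76 and 12.77, 11.80 and 11.74, 12.39 and 12.25, and 13.28 and 13.17 in the same groups (-0.99 ± 0.10 and 0.90 ± 0.10). The probes of this gene moved alike.

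Probe 1 of Psmb10 had 13.60 and 13.24 in acetone 4 h, 12.17 and 12.38 in shikonin 4 h, 12.10 and 12.61 in acetone 24 h, and 13.33 and 13.53 in shikonin 24 h (-1.15 ± 0.18 and 1.07 ± 0.18). Probe 2 of Psmb10 had 12.51 and 12.76, 12.00 and 11.60, 12.35 and 12.04, and 13.42 and 13.45 in the same groups (-0.83 ± 0.16 and 1.24 ± 0.16). Against the acetone 4 h arrays, probe 2 of each gene was higher at 24 h (Psmb8 by 0.46, adjusted p = 0.00414; Psmb10 by 0.80, adjusted p = 0.00237) and the other 3 immunoproteasome probes were not (-0.01 to 0.08). With the acetone 24 h arrays as control for shikonin 4 h, 3 of the 5 probes were lower (median -0.45), and the Psmb10 probes did not pass (-0.08, adjusted p = 0.736; -0.39, adjusted p = 0.0648). Macrophage and monocyte markers had medians of the same signs. At 4 h 7 of 14 genes were lower and 2 higher (median -0.38), and at 24 h 8 were higher and 1 lower (median 0.90). Their mean log2 level was 11.83 to 11.85 on the shikonin 4 h arrays and 12.90 to 12.97 on those of 24 h. Endothelial markers had these signs too. At 4 h 4 of 6 genes were lower and 1 higher (median -0.68), and at 24 h 3 were higher and 2 lower (median 0.47). The part of such cells was not tested.

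The shikonin difference itself changed between the times for 20 of the 38 members, as tested by the interaction of treatment and time. It was larger at 24 h for 13 members and smaller for 7, against 21.1% larger and 22.2% smaller of all measured probes, with a median of 0.21 (all probes: -0.02). The regulatory particle had 7 of 16 larger and 1 smaller (median 0.38), the β ring 0 of 6 larger and 3 smaller (median -0.23, and 0 and 3 also at an unadjusted p under 0.05), and the activators 1 of 5 larger and 3 smaller (median -0.62). Psma6 (2.56 ± 0.28, adjusted p = 0.000113) and Psmd10 (1.70 ± 0.17, adjusted p = 6.94e-05) were the highest, and Psmb2 (-0.79, adjusted p = 0.00132), Psme2 (-0.74, adjusted p = 0.0126) and Psme4 (-0.73, adjusted p = 0.00307) the lowest. Without acetone 24 h replicate 1 the counts were 8 larger and 5 smaller and the median was 0.02. They were 8 and 4 without acetone 4 h replicate 1 or shikonin 24 h replicate 1, 7 and 4 without acetone 4 h replicate 2, 8 and 5 without shikonin 24 h replicate 2, and 7 and 7 without shikonin 4 h replicate 2. For the regulatory particle 2 were larger and 1 smaller without shikonin 4 h replicate 2, 3 and 0 with 1 array of acetone 4 h or of shikonin 24 h left out, and 4 and 0 without acetone 24 h replicate 1 (median 0.14).

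Few members met the 2-fold criterion, which asks for 2-fold or more, up in both or down in both, when arrays are paired by replicate number. At 4 h 0 of the 38 were 2-fold higher and 0 were 2-fold lower, against 7.38% and 5.05% of all measured probes, although 12 passed limma. At 24 h Psma6 and Psmd10 were 2-fold higher and 0 members were 2-fold lower, against 12.5% and 12.3%.

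The DNA before the start of these genes was searched on both strands for the letters of 3 known motifs, in RefSeq windows (GRCm38.p6) of 250 bases before to 50 bases after the start. Of the 35 subunit, chaperone and activator genes 28 had a window, 31 windows in all. The core of the antioxidant response element, TGACNNNGC, which NFE2L1 and NFE2L2 bind with small MAF proteins, stood in 6 of the 31 windows (19.4%), those of Psmb5, Psmb6, Psmc6, Psmd9, Psmd12 and Psme4, against 12.4% of 32851 windows of all genes. The letters CCAAT, the core of the site of NF-Y, stood in 10 windows (32.3%), against 37.4% of all. The interferon-stimulated response element stood in 3 windows (9.68%, all: 3.44%), those of Psmd4, Psmd9 and Psme1. Such letters are a description of the window and not a site in use.

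Stretches of these windows are given for some of the genes, called or not. Psmb5 was called at both times, Psmb6 at neither and Psmd12 at 24 h, and their matches to the antioxidant response element core are in capitals. Psmd10 and Psma2, which were called in opposite directions at 24 h, have CCAAT or its reverse complement in capitals. Each is read 5′ to 3′ on the strand of its gene. The positions are those of Psmb5 at chr14:54617996-54618075 (minus strand), Psmb6 at chr11:70525277-70525356 (plus), Psmd12 at chr11:107479278-107479357 (plus), Psma2 at chr13:14613162-14613241 (plus) and Psmd10 at chrX:140956712-140956791 (minus).
Psmb5: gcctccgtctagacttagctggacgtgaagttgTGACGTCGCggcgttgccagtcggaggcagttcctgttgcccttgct
Psmb6: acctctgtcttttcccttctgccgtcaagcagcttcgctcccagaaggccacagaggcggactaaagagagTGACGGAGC
Psmd12: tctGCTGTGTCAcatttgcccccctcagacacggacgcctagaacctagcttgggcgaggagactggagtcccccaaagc
Psma2: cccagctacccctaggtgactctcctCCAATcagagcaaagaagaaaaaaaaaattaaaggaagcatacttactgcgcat
Psmd10: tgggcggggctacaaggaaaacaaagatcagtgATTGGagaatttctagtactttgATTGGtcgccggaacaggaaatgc
The match of Psmb5 begins 47 bases before the start, that of Psmb6 ends at the last base before it, and that of Psmd12 lies on the opposite strand at the far end of the window. Psmd10 holds the reversed CCAAT at 2 places in the stretch shown and Psma2 holds it on the gene strand. The letters stood in 37.4% of all windows, and a part of them in these calls was not tested.

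Genes that act with the proteasome were read from 5 lists, of which 43 genes were measured, the immunoproteasome genes among them. At 4 h limma called 11 of these higher and 8 lower, and at 24 h 13 higher and 6 lower, beside the 21.2% and 25.4% of all probes at 4 h and the 29.0% and 32.3% at 24 h. The list of other subunits and bound factors (10 of 14 measured) had 1 call each way at 4 h. Its calls at 24 h were 3 higher and 0 lower by limma, or 4 and 0 at an unadjusted p under 0.05. Ubr4, a ubiquitin ligase, was higher at 4 h (1.03 ± 0.24, adjusted p = 0.00672), but did not pass against acetone 24 h (0.31, adjusted p = 0.304). Sem1, the smallest subunit of the lid, was lower at 4 h (-0.52 ± 0.11, adjusted p = 0.0048) and higher at 24 h (0.44 ± 0.11, adjusted p = 0.0081), as several lid genes were against acetone 24 h. It measured 14.98 and 15.13 in acetone 4 h, 14.63 and 14.43 in shikonin 4 h, 14.45 and 14.75 in acetone 24 h, and 15.04 and 15.04 in shikonin 24 h, and the last differed from acetone 4 h by -0.01 (adjusted p = 0.943). Against acetone 24 h the Sem1 difference at 4 h was -0.07 (adjusted p = 0.617). Ube3c, a ligase that extends chains on the proteasome, was higher at 24 h (0.70 ± 0.21, adjusted p = 0.0153), but not against acetone 4 h (0.07, adjusted p = 0.772).

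Of the factors that regulate proteasome genes 8 of 10 were measured. The test called 4 of them higher and 1 lower at 4 h, then 5 higher and 1 lower after 24 h (median log2 differences of 0.35 and 1.06). Nfe2l1 measured 12.94 and 12.81 in acetone 4 h, 12.75 and 13.14 in shikonin 4 h, 13.40 and 13.40 in acetone 24 h, and 12.50 and 12.46 in shikonin 24 h. Its RNA did not pass at 4 h (0.07, adjusted p = 0.677) and was lower at 24 h (-0.92 ± 0.13, adjusted p = 0.000228), also against acetone 4 h (-0.39, adjusted p = 0.0285). The related Nfe2l2, the main factor of the antioxidant response, had 11.09 and 10.61, 10.81 and 10.29, 8.98 and 9.17, and 11.11 and 11.37 in the same groups. It was 4.47-fold higher at 24 h (2.16 ± 0.22, adjusted p = 2.7e-05), but stood 0.39 from acetone 4 h (adjusted p = 0.162), and the 2 acetone 24 h arrays were the lowest of the 8. The small MAF partners Maff and Mafk were higher at both times (2.21 ± 0.21 and 0.81 ± 0.20 at 4 h, 2.60 ± 0.21 and 2.31 ± 0.20 at 24 h) and at 24 h against acetone 4 h too (1.65 and 1.53). Mafg, of the same family, was higher at both times (0.63 and 0.46), but at 24 h did not pass against acetone 4 h (0.20, adjusted p = 0.272). Ngly1, which processes NFE2L1 protein, was lower at 4 h (-0.68 ± 0.16, adjusted p = 0.00667), but did not pass against acetone 24 h (-0.14, adjusted p = 0.464).

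Of ubiquitin genes and first enzymes (10 of 17 measured) limma called 2 in each direction at 4 h. At 24 h it called 0 higher and 1 lower, or 0 and 3 at an unadjusted p under 0.05. The conjugating enzymes Ube2h (1.10 ± 0.12) and Ube2s (0.61 ± 0.15) were higher at 4 h and Ube2d1 (-0.91 ± 0.12) and Ube2n (-0.48 ± 0.16) lower, and Ube2c, which serves the anaphase-promoting complex, was lower at 24 h (-1.11 ± 0.13, adjusted p = 7.96e-05). Against acetone 24 h the Ube2n difference at 4 h was 0.20 (adjusted p = 0.325). For p97 cofactors and shuttle factors (12 of 15 measured) the calls were 4 up and 1 down at 4 h, against 2 up and 4 down at 24 h. Sqstm1 (p62), the autophagy receptor for ubiquitin chains, was higher at both times (1.06 ± 0.10, adjusted p = 4.54e-05; 1.36 ± 0.10, adjusted p = 3.46e-06), with 12.91 and 12.85 in acetone 4 h, 13.83 and 14.05 in shikonin 4 h, 12.20 and 12.18 in acetone 24 h, and 13.50 and 13.60 in shikonin 24 h. Ufd1, a p97 cofactor, was higher at 4 h (0.54 ± 0.15, adjusted p = 0.0148). The shuttle factors Ubqln2 at 4 h (-1.25 ± 0.18, adjusted p = 0.000424) and Ubqln1 at 24 h (-0.90 ± 0.18, adjusted p = 0.00184) were lower. At 24 h Ubxn4 was higher (1.18 ± 0.27, adjusted p = 0.00386) and Faf1 lower (-0.82 ± 0.08, adjusted p = 2.69e-05).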

How the data were processed

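Total RNA of abdominal skin was labelled with Cy5 as antisense RNA and hybridized by the authors to the Mouse OneArray, 1 skin sample an array, and spots were read with GenePix. The values deposited by the authors are linear intensities, already scaled between arrays; the sources used here do not give how they were scaled, how background was treated, or why 16069 of 29922 probes are blank on all 8 arrays. The 13853 probes measured on all arrays were used. The 5th percentile of all values (203.4) served as a floor, and tests ran on log2 values.

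The model, limma 3.58.1 under R 4.3.3, held 4 group means (eBayes with an intensity trend, 4 residual degrees of freedom, prior 5.02), with Benjamini-Hochberg adjustment over all 13853 probes and a threshold of 0.05. It gave 5 contrasts, namely shikonin over acetone at each time, their difference, and 24 h over 4 h within each treatment. Gene symbols came from the platform annotation: 11550 measured probes had 1 symbol and 2303 none. Probe sequences were not used, so signal from near-identical gene copies cannot be told apart. In pathway and marker lists each gene was read from its brightest probe (highest mean over the arrays). The number of arrays limits the precision.

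Array values are given for the 3 highest and 3 lowest called members of each contrast that moved alike in all pairings of arrays. They are also given for the extremes of each class at each time, members with probes that disagree, all activators and all immunoproteasome probes. From each pathway list the 2 highest and 2 lowest called genes at each time are named. Most of these have only their difference, and Sem1, Nfe2l1 and Sqstm1 also have array values. Pathway genes named beyond that rule (Nfe2l2 with its array values among them) were chosen after their values were seen. Members and lists were chosen with earlier results of these data known. Simulated data for the 24 h contrast used the residual spread of each of the 13853 probes over all 8 arrays. There limma recovered 76 of 100 probes changed 2-fold and 97 of 100 changed 4-fold and called 5 unchanged probes. In that simulation 13653 probes were unchanged, whereas 29.0% of the real probes were called higher and 32.3% lower at 24 h. The simulated rates therefore do not carry over to the real calls. Alternatives changed the scaling, floor, filter, trend, weights, threshold, block, control arrays, probes of a gene and the arrays used. Promoter windows came from RefSeq, and 1 planned motif is not reported here. Plots used matplotlib 3.10.9 (Python 3.11.15).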

Additional observations from a re-analysis of the deposited data

Results flagged for a closer look

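The shikonin difference at 24 h was set against that at 4 h for each member by the interaction of treatment and time in limma, and 20 members passed. It was larger at 24 h for Psma6 (2.56), Psmd10 (1.70), Psmd6 (1.31), Psmd14 (1.27), Psmc3ip (1.16), probe 1 of Psme1 (1.09), probe 2 of Psmc6 (1.03), Psmc5 (0.93), Psma3 (0.87), Psmd4 (0.85), Psmd12 (0.85), Psmd11 (0.84) and Psmg1 (0.48), all on the log2 scale. It was smaller at 24 h for Psmb2 (-0.79), Psme2 (-0.74), Psme4 (-0.73), Psmb7 (-0.64), Psme3 (-0.62), Psmd7 (-0.50) and Psmb1 (-0.45). Psma6 and probe 1 of Psme1 were called lower at 4 h and higher at 24 h, and Psme4 the reverse. Of the 20, 9 kept the call in each of the 8 fits with an array left out (Psma3, Psma6, Psmb2, Psmb7, probe 2 of Psmc6, Psmd4, Psmd10, probe 1 of Psme1 and Psme4), and 11 lost it in at least 1. The share of members was 34.2% larger and 18.4% smaller, and that of all measured probes 21.1% and 22.2%, with no test of the list.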

How the results depend on the processing

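Of the counts and medians recomputed under the alternatives, 200 of 229 kept their direction and size. With acetone skin of the other time as control, the members' median was 0.31 at 4 h and -0.07 at 24 h (from 0.03 and 0.19) and 10 members were called at 24 h. Among the members whose difference passed the test with either acetone group, the sign then changed for Psma3 (-0.40), Psmb2 (0.24), Psmd3 (-0.31), Psmd4 (-0.32), Psmd6 (-0.57), Psmd11 (-0.28), Psmd12 (-0.21), Psmd14 (-0.02) and Psme4 (0.06) at 24 h, and for Psma6 (0.42), Psmd4 (0.63), Psmd6 (0.73), Psmd10 (0.44), Psmd11 (0.57), Psmd12 (0.77) and Psme4 (-0.13) at 4 h. An adjusted p of 0.01 left 6 calls at 4 h, 11 at 24 h, 9 for the difference and 7 between the shikonin groups. A floor at the 25th percentile left 13 for the difference and 8 between the acetone groups. At 1.5-fold 1 member met the fold criterion at 4 h and 6 at 24 h, and at 3-fold 1 did at 24 h. With 1 array left out the calls ranged from 5 to 14 at 4 h, 10 to 20 at 24 h, 11 to 19 for the difference, 6 to 14 between the acetone groups and 7 to 14 between the shikonin groups. The medians ranged from -0.10 (without shikonin 4 h replicate 1) to 0.03, 0.11 to 0.34, 0.02 to 0.29, -0.41 to -0.19 and -0.18 to -0.04 in the same order. Calls of pathway genes ranged from 13 to 20 at 4 h and 15 to 23 at 24 h. The cause of these shifts was not tested, and a left-out array leaves 1 array in its group, assumed to vary like the others.

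The labels do not say whether replicate numbers pair the arrays. Deviations of same-numbered arrays from their group means correlated at -0.04 (4 h) and 0.21 (24 h) across probes. Between acetone 4 h and shikonin 24 h the value was also 0.21. With 2 arrays a group these values cannot decide whether the arrays are paired. With the replicate number as a block 12 members were called at 4 h and 18 at 24 h, Psmc1 being the call that was lost (adjusted p = 0.0602). Between shikonin 4 h and shikonin 24 h these deviations correlated at -0.21. With the replicate numbers of shikonin 24 h crossed, an alternative chosen after seeing the data, 11 members were called between these groups (10 with the block as numbered).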
